A study of Mus musculus with 8 samples.

Results

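The miRNA family of miR-148a, miR-148b and miR-152 (microRNAs, short RNAs that repress messengers) was followed in mouse microvascular smooth muscle cells. Its members were taken by name from the array: every spot, controls aside, whose name carries mmu-miR-148a, mmu-miR-148b or mmu-miR-152 in any mature form, the prefix standing for mouse and left out from here on. That gave 4 of the 650 miRNAs on the array, namely miR-148a, miR-148b, miR-152 and miR-148a*, the strand opposite to miR-148a in its hairpin. They are covered by 10 of 1857 probes and 80 of 13000 spots. The first 3 are the guide strands and passed the filter on dim signals, and miR-148a* did not. The family was selected on the RapCA and vector signals of these same arrays, so its differences between groups are given as a description, without p-values.

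RapCA cells were transduced with a shuttle vector holding the RapCA construct, and vector cells with the same shuttle vector left empty, 4 arrays of each. Cells of both groups came from male C57BL6 mice lacking Rap1a, a small GTPase, so the vector cells are Rap1a -/- and no wild-type cells were compared. Both groups were grown in 10% serum. After overnight exposure to virus without serum, both groups recovered for 48 h in 0.5% serum, a medium that holds cells back from dividing, before total RNA was extracted and labelled with Cy3. The labels do not say what RapCA encodes or how many mice were used. They call the arrays biological replicates without naming separate cultures, so the spread between them may in part be technical. The comparison asks how the family differs when RapCA is supplied to cells without Rap1a.

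MiRNAs guide the Argonaute complex to messenger RNAs that pair with bases 2 to 8 of the miRNA, called the seed, and the paired messenger is then repressed or degraded. The members of this family share 1 seed and so share most predicted targets. The best studied is the messenger of DNA methyltransferase 1 (Dnmt1), the enzyme that copies DNA methylation to the new strand after replication, which miR-148a and miR-152 lower in several mouse and human cell types. miR-152 is encoded inside Copz2 and miR-148b inside Copz1, paralogous genes for a subunit of the COPI vesicle coat, while miR-148a lies outside such a host gene.

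The mature sequences are shown because the members differ at few bases and were read by separate probes. RefSeq (GRCm38.p6) held all 4. Each runs 5′ to 3′ with bases 2 to 8 in capitals.
miR-148a: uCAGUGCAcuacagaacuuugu
miR-148b: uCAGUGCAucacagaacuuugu
miR-152: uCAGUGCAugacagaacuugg
miR-148a*: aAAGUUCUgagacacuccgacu

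The 3 guide strands share the seed CAGUGCA, and among 1738 mature mouse miRNAs in the RefSeq table only these 3 carried it at bases 2 to 8. Its pairing site in a target reads TGCACTG in DNA letters. Outside the seed the members were nearly identical. Counted from 1 at the 5′ end, miR-148b differs from miR-148a by C9U and U10C, so 20 of 22 bases are the same. miR-152 differs from miR-148a by C9U, U10G and U20G over the 21 bases they share, and from miR-148b by C10G and U20G. The passenger miR-148a* has another seed, AAGUUCU. Whether a probe for 1 member also binds another was not tested.

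RefSeq places the Mir148a hairpin at chr6:51269812-51269910 on the minus strand, within the span of the predicted gene Gm38821, with Npvf and Nfe2l3 as the nearest protein-coding genes. The Mir152 hairpin lies at chr11:96850393-96850465 on the plus strand, within the span of Copz2. The Mir148b hairpin lies at chr15:103285125-103285221 on the plus strand, within the span of Copz1. Only gene spans were used, so exon or intron is not assigned here, and the array does not measure the host genes. The Mir148a hairpin is printed with its 2 mature arms in capitals, since probes for both arms were on the array, the 5′ arm being miR-148a* and the 3′ arm miR-148a.
Mir148a hairpin: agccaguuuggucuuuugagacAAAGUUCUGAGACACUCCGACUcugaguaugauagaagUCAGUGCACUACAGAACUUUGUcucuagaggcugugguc

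The arrays themselves differed in brightness, which bears on every value that follows. Total miRNA signal ran from 26374 to 56618 on RapCA arrays and from 59506 to 81972 on vector arrays (two-sided exact permutation p = 0.0286, the smallest that 70 assignments allow, or 0.0857 adjusted for the 3 array measures examined). RapCA replicate 1 was the bright one of its group at 56618. Spike-in RNA averaged 1255 ± 129 on RapCA arrays and 1254 ± 108 on vector arrays (SD, n = 4 each; exact permutation p = 1). All 8 arrays lay on 1 slide, the RapCA arrays in row 2 and the vector arrays in row 1, so slide row and group cannot be told apart. Differences below are on signals scaled so that the 75th percentile of 189 probes detected on all 8 arrays was equal, in log2 units. A probe counted as detected if more than 0.5 of its kept spots on that array were flagged well above background. In such bulk samples, fewer cells of a type and less RNA per cell cannot be told apart.

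miR-152 read lower in RapCA cells than in vector cells, and by more than miR-148a did. Its scaled log2 signal was 5.14, 4.73, 4.88 and 4.97 in RapCA replicates 1 to 4, against 5.89, 6.27, 6.41 and 6.27 in vector replicates 1 to 4. The groups did not overlap, and the lowest vector array lay 0.75 above the highest RapCA array. Means were 4.93 ± 0.17 in RapCA cells and 6.21 ± 0.22 in vector cells (SD, n = 4 each). The log2 difference was -1.28 ± 0.13 (SE), so that the RapCA level was 41.2% of the vector level. This was the 12th lowest of the 168 miRNAs tested. The same side was seen before scaling, where Feature Extraction's summed signal for miR-152 was 66.3, 19.9, 23.8 and 24.7 on the RapCA arrays, against 116, 161, 197 and 124 on the vector arrays. RapCA replicate 1, whose total signal was close to that of the vector arrays, read 66.3 and lay below all 4 of them.

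miR-148a, a miRNA abundant in liver, also read lower in RapCA cells. Its scaled log2 signal was 4.96, 4.31, 4.74 and 4.61 in RapCA replicates 1 to 4, against 5.34, 5.68, 5.77 and 5.58 in vector replicates 1 to 4. The groups were again apart, with a gap of 0.38 between the lowest vector array and the highest RapCA array. RapCA cells averaged 4.65 ± 0.27 and vector cells 5.59 ± 0.19 (SD, n = 4 each). The log2 difference was -0.94 ± 0.15 (SE), with the RapCA level at 52.1% of the vector level. Leaving out RapCA replicate 2, the lowest array, and setting the scaling and floor anew gave -0.62. The median of all tested miRNAs moved with it, from -0.30 to -0.096, so this change is not that of 1 array alone. Unscaled, miR-148a read 60.3, 10.8, 21.7 and 19.7 on the RapCA arrays, against 80.8, 110.2, 127.7 and 77.4 on the vector arrays. With the array's log2 total signal as a covariate the difference was -0.45 and was no longer past limma's threshold, whereas that of miR-152 was -0.93 and remained past it. Total signal did not overlap between the groups, so this fit separates group from brightness poorly. These calls do not rank the 2 members.

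miR-148b was near the limit of measurement. Only 1 of its 2 probes was detected on any array, on all 4 vector arrays and on 1 of 4 RapCA arrays. That probe's unscaled signal was 12.03, 1.99, 2.27 and 2.60 on RapCA arrays 1 to 4, against 15.5, 21.0, 20.8 and 12.9 on vector arrays 1 to 4. On RapCA arrays 2 to 4 every kept spot lay at the floor, a scaled signal of 9.61 or 3.26 in log2, below which values have no order. Scaled means were 3.27 ± 0.004 in RapCA cells and 3.56 ± 0.14 in vector cells (SD, n = 4 each), and the difference of -0.29 ± 0.09 (SE) is limited by that floor. With a floor of 1 it was -1.49. The RapCA SD is that of values held at the floor and does not measure the spread between cultures. The dimmest detected probe of any miRNA lay at 3.26 on RapCA array 1 and at 4.70, 4.06 and 4.24 on RapCA arrays 2 to 4, so on those 3 arrays a scaled signal as low as the vector mean of 3.56 was outside the range of detected probes. The limma call for miR-148b was lost without RapCA replicate 1 (-0.19) or 2 (-0.14) and without vector replicate 2 (-0.13) or 3 (-0.18). Scaling, floor and probe filter were set anew in each such fit, so these values do not show the weight of 1 array alone. With the reported scaling and floor kept, RapCA replicates 2 to 4 differed from the vector mean by -0.30.

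**Figure D1:**
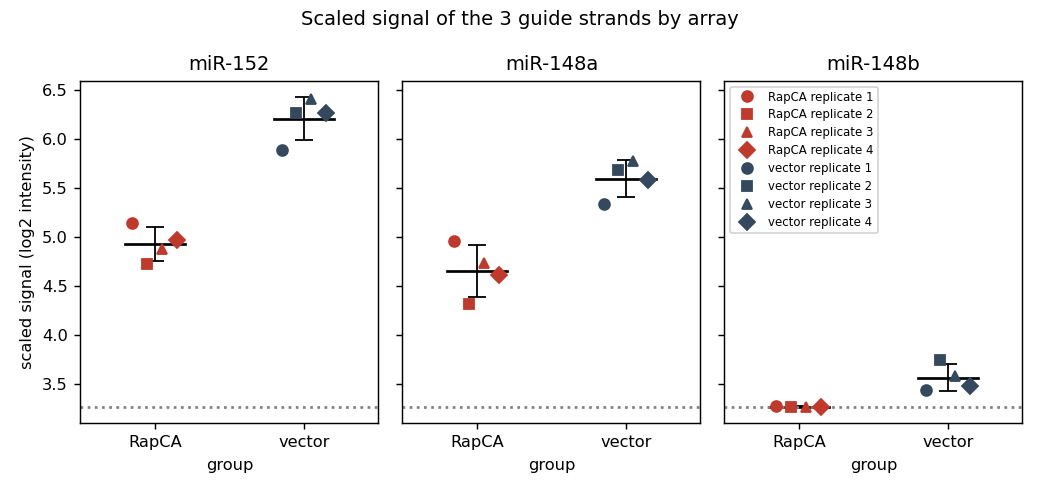
Scaled log2 signal (vertical axis) of miR-152, miR-148a and miR-148b on each array, RapCA left and vector right in each panel. Symbols are arrays by replicate number, the bar and whiskers are the mean and SD of 4 arrays, and the dotted line is the floor at 3.26. miR-152 and miR-148a lie above the floor on all arrays with no overlap between groups, while miR-148b sits at or just above the floor on all 4 RapCA arrays.

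Of the 3 tested members, 3 were past limma's threshold (Benjamini-Hochberg over 168 miRNAs, 0.05) as lower in RapCA cells, beside 50.0% of all tested miRNAs called lower and 76.2% called in either direction. Their groups did not overlap, with RapCA lower, for 3 of 3, beside 46.4% of all tested and 67.9% not overlapping in either direction. Among these members, miR-148b entered the fit only through the vector arrays, and its RapCA values lay at or just above the floor. Its part in both counts is therefore limited by the filter and the floor. Nothing about the family is read from these counts. The median log2 difference over all 168 miRNAs was -0.30, so a value of 0 does not stand for the typical miRNA. Relative to that median, miR-152 stood at -0.98, miR-148a at -0.64 and miR-148b at 0.01. The place of miR-148b is set by the floor, since with a floor of 1 it had -1.49 beside a median of -0.37.

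**Figure D2:**
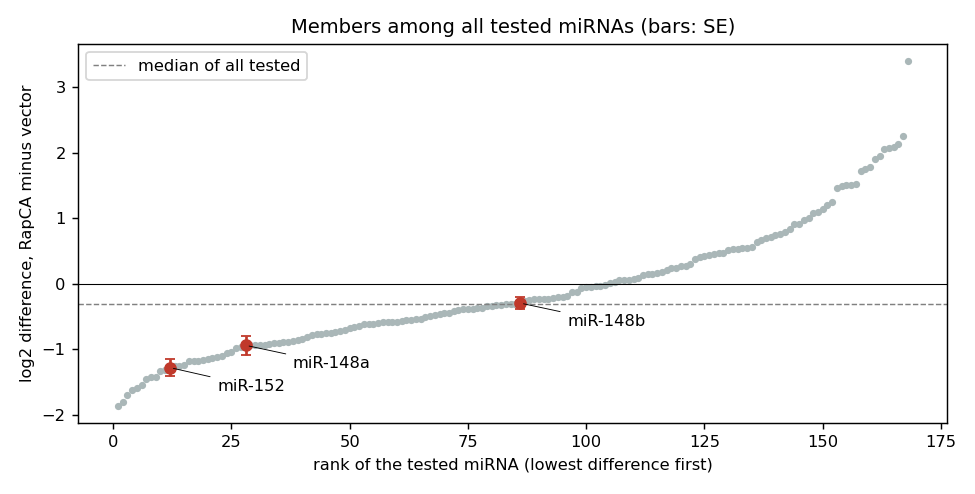
Log2 difference, RapCA minus vector, of all 168 tested miRNAs (vertical axis) in order from lowest to highest (horizontal axis). Red points with SE bars are the members, and the dashed line is the median of all tested, -0.30. miR-152 and miR-148a lie in the lower part of the range at -1.28 and -0.94, and miR-148b lies next to the median, a place set by the floor on dim signals.

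The 2 probes of miR-152 pointed the same way, and so did the 2 probes of miR-148a. For miR-152, probe A_54_P2334 had a log2 difference of -1.20 and probe A_54_P2333 one of -1.36. For miR-148a, probe A_54_P1274 had -0.88 and probe A_54_P1273 had -1.002. The dimmer probe of each pair was not detected on every RapCA array and entered the fit only through the vector arrays, which limits this agreement. A_54_P2333 was detected on 3 and A_54_P1273 on 2 of the 4, whereas A_54_P2334 and A_54_P1274 were detected on all 8 arrays. The second probe of miR-148b, A_54_P1381, was detected on no array and did not enter the fit.

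Spots and probe pairs give the technical precision behind these values. Each of these probes was printed as 10 spots, and over the kept spots the coefficient of variation of the 4 probes of miR-152 and miR-148a was 8.22% to 28.4% on RapCA arrays and 4.11% to 18.6% on vector arrays. The signal of the brighter miR-148a probe over the dimmer one was 1.96 to 2.39 on RapCA arrays and 1.83 to 2.01 on vector arrays. For miR-152 that ratio was 1.60 to 2.20 on RapCA arrays and 1.57 to 1.81 on vector arrays. In each pair the highest ratio came from RapCA replicate 2, the dimmest array, on which the dimmer probe was not detected.

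**Figure D3:**
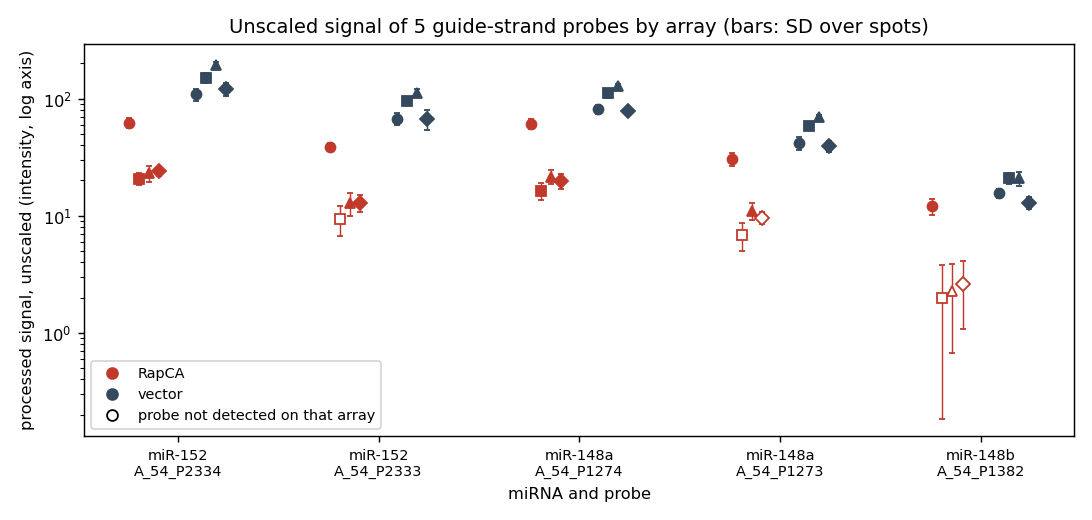
Processed signal before scaling (vertical axis, log scale) of the 5 guide-strand probes that entered the fit, RapCA left and vector right for each probe. Symbols are arrays by replicate (circle 1, square 2, triangle 3, diamond 4), bars are the SD over the spots of an array, and open symbols mark arrays where the probe was not detected. RapCA replicate 1 lies above the other 3 RapCA arrays and below all vector arrays for every probe drawn.

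miR-148a* showed no signal. None of its 154 kept spots over the 8 arrays was well above background (0 spots), and the mean signal of its 4 probes ranged from -4.42 to 1.01 after background subtraction. No fold is given for it, and with these probes its level cannot be told from background in either group. miR-148b and miR-152 each had 1 mature form on the array, so their opposite strands were not analysed here.

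The change in miR-152 relative to miR-148a was compared within each array. Scaling cancels in such a ratio only where no floor is applied, and here some spots of the dimmer probes lay at a floor set after scaling. The log2 ratio of miR-152 to miR-148a was 0.19, 0.41, 0.14 and 0.35 in RapCA replicates 1 to 4, against 0.55, 0.59, 0.64 and 0.68 in vector replicates 1 to 4. The groups did not overlap. The mean ratio was 0.27 ± 0.13 in RapCA cells and 0.61 ± 0.06 in vector cells (SD, n = 4 each), a difference of -0.34 ± 0.07 (SE). Levels of different probes are not comparable, so only this shift carries information. With the brighter probe of each and no floor, where scaling does cancel, the shift was -0.33 ± 0.09 (SE), and the groups were again apart, with RapCA arrays at 0.02 to 0.35 and vector arrays at 0.42 to 0.62. On these arrays miR-152 was thus further below its vector level than miR-148a was. The shift ran from -0.44 to -0.22 over the 25 alternatives that gave a value. These rework the same arrays on which the family was chosen, so they describe dependence on processing and do not test the shift.

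miR-148b could not be placed in that order. Against it, the ratio of miR-152 had a shift of -0.98 ± 0.13 and that of miR-148a one of -0.64 ± 0.15 (SE). With a floor of 1 in place of 9.61 these shifts turned to 0.21 and 0.55, so their direction is set by the floor.

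**Figure D4:**
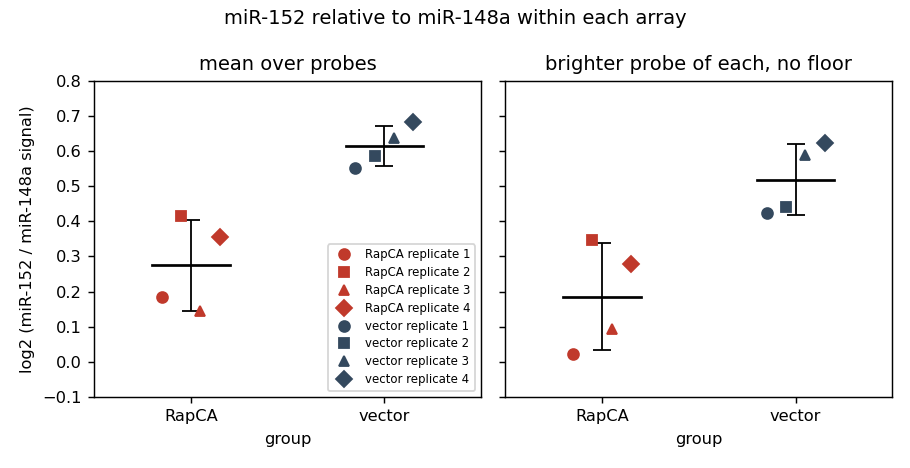
Log2 ratio of miR-152 to miR-148a signal (vertical axis) on each array, RapCA left and vector right, from the mean over probes in one panel and from the brighter probe of each with no floor in the other. Symbols are arrays by replicate number, with the mean and SD of 4 arrays. All 4 RapCA arrays lie below all 4 vector arrays in both panels, at 0.14 to 0.41 against 0.55 to 0.68 in the first.

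For miR-152 and miR-148a, background correction was the setting that brought the difference nearest to 0 or past it. Normexp correction of the median spot signals with an offset of 50 gave -0.15 for miR-152, 0.16 for miR-148a and 0.56 for miR-148b, and of these only miR-148b was past the threshold, as higher. In that setting the median of all tested miRNAs was 0.37, so miR-152 and miR-148a lay below it. Without the offset the values were -0.86, -0.43 and 0.16, with a median of -0.01. Over the 27 alternatives, miR-152 was past the threshold as lower in 26 and miR-148a in 24, and both lay below the median of all tested miRNAs in all 27. miR-148b was past the threshold as lower in 15 of the 26 that gave a value. As reported, it entered the fit only through the vector arrays. Among the alternatives, the deposited series-wide values equal the processed intensity, so their outcome was fixed. The counts describe dependence on processing and do not test the family, which was chosen on these values.

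**Figure D5:**
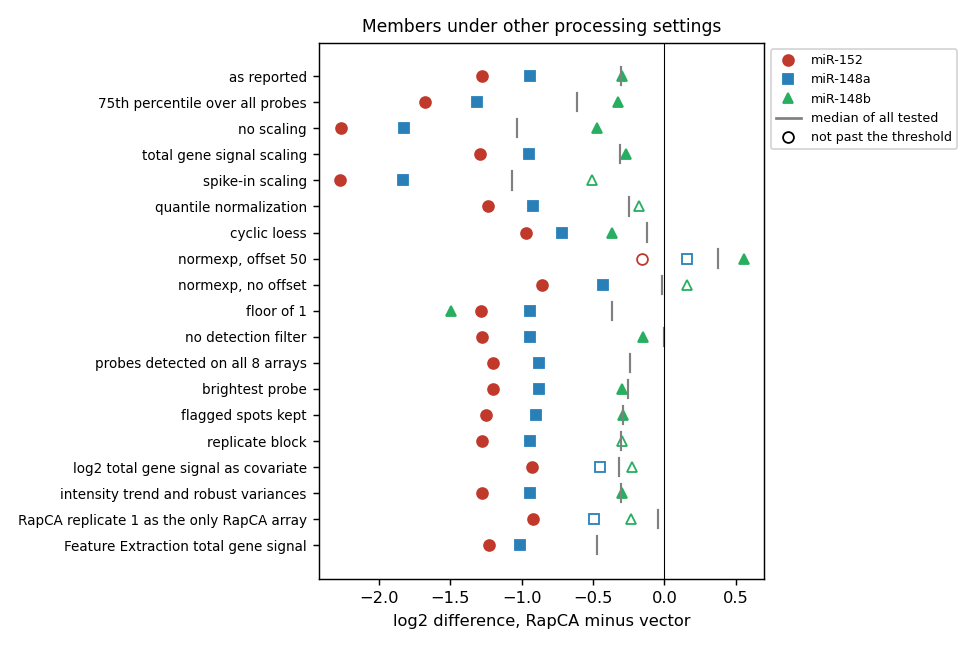
Log2 difference, RapCA minus vector (horizontal axis), of miR-152 (circles), miR-148a (squares) and miR-148b (triangles) as reported and under other processing settings (vertical axis). Open symbols did not pass the limma threshold, and grey ticks are the median of all tested miRNAs in that setting. miR-152 and miR-148a lie left of the grey tick in each setting, and the value of miR-148b from summed gene signal, -4.17, is off the scale.

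By the smallest root mean square difference in centred log2 signal over the 8 arrays, among 114 other miRNAs with a probe detected on all 8, miR-152 was nearest to miR-300 (0.105), miR-199b* (0.124) and miR-26a (0.180). Their own log2 differences were -1.18 ± 0.11, -1.26 ± 0.12 and -1.25 ± 0.08 (SE). miR-148a was nearest to miR-98 (0.171), miR-199a-3p (0.171) and miR-300 (0.179). miR-152 and miR-148a were 5th in each other's order, at 0.191. miR-148b, which had no probe detected on all 8 arrays, was ranked against all 115 miRNAs that had one. It was nearest to let-7g (0.0798), miR-30b (0.0927) and miR-22 (0.0976), an order that again rests on values at the floor.

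A related seed occurs in the family of miR-130a and miR-301a, whose members start with CAGUGCA at bases 1 to 7, 1 base earlier than in the miR-148a seed. The RefSeq table had 7 such miRNAs, of which 4 were on the array by name. Of these, miR-130a and miR-301a were tested, and both were named after their values were seen. miR-130a was at 8.999 ± 0.10 in RapCA cells and 9.34 ± 0.06 in vector cells (SD, n = 4 each), and differed by -0.34 ± 0.09 on the log2 scale (SE; limma adjusted p = 0.00484). That difference lay near the median of all tested miRNAs, -0.30. For miR-130a, cyclic loess gave -0.0064 and quantile normalization -0.079, neither past the threshold. miR-301a was at 5.03 ± 0.28 in RapCA cells and 5.41 ± 0.25 in vector cells, a difference of -0.38 ± 0.17 that did not pass (limma adjusted p = 0.0568).

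Other miRNAs reported to act on DNA methyltransferases were called in both directions, as miRNAs on this array were at large. Of 9 listed, 6 were tested, and 3 were raised and 3 lowered, beside 26.2% raised and 50.0% lowered of all tested, with a median log2 difference of -0.07 beside -0.30 for all tested. The raised ones were the miR-29 family, which represses Dnmt3a and Dnmt3b, with 0.98 ± 0.11 for miR-29a, 1.503 ± 0.35 for miR-29b and 0.47 ± 0.19 for miR-29c (log2 difference ± SE, n = 4 per group). The direction of miR-29a and miR-29c depended on scaling, and that of miR-29b did not. Without scaling the 3 values were -0.090, 0.43 and -0.59, none of them past the threshold, beside a median of -1.03 for all tested. Among the lowered ones, miR-342-3p was at 5.22 ± 0.19 in RapCA cells and 5.99 ± 0.19 in vector cells, a difference of -0.76 ± 0.13 (limma adjusted p = 0.000432). miR-143, reported to target Dnmt3a in human cells, had -1.62 ± 0.15. miR-185 was at 3.89 ± 0.18 in vector cells (SD, n = 4), but no RapCA array had it well above background. It entered the fit only through the vector arrays, and its RapCA values lay at or near the floor. The vector mean lay below 4.07, the mean over RapCA arrays of the dimmest detected probe. Its count among the lowered thus rests on the floor, and it gets no fold or p-value. Of the 3 listed miRNAs that were not tested, miR-101a and miR-101b were each detected on 1 RapCA and 2 vector arrays and miR-126-3p on none. Dnmt transcripts and proteins were not measured.

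Among the smooth muscle markers, miR-143 was detected on all arrays of both groups and read lower in RapCA cells. Of 4 listed, 3 were on the array and miR-143 and miR-145 were detected, with a summed signal of 27.1 to 98.6 on RapCA arrays and 187 to 326 on vector arrays before scaling. Both were called lower by limma, beside 50.0% of all tested miRNAs, except that normexp with an offset of 50 gave 0.46 for miR-145. miR-145 was well above background on 0 RapCA and 4 vector arrays, so it entered the fit only through the vector arrays. Its scaled vector mean of 4.02 lay below 4.07, the mean over RapCA arrays of the dimmest detected probe. Its level in RapCA cells was therefore not established as lower. The part of these markers in the family's difference was not tested. miR-145* was not detected on any array. Of the endothelial, blood, epithelial and liver lists, with 2, 6, 7 and 1 miRNAs on the array, 0 were detected on any array. Of 6 striated muscle markers only miR-206 was detected, at a log2 difference of 0.06 ± 0.095 (SE; limma adjusted p = 0.579) that was -0.58 without scaling, and of 3 neural markers only miR-128, on 1 RapCA and 2 vector arrays.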

How the data were processed

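The 8 single-colour arrays were read by the authors into an intensity per spot, using Agilent Feature Extraction 10.7.3.1, per the file headers (10.7 in the submitters' processing notes). The deposited processed intensity was background-subtracted and detrended per spot and not scaled between arrays. The deposited detection, saturation and outlier flags are another column type with no unit. The deposited series-wide value table equals the processed intensity. The authors' table of 54 selected miRNAs lists none of the members (0) and was not used further.

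Flagged spots were left out (2.98% to 4.66% per array; 0 saturated). Signals were scaled, floored at percentile 1 of spots well above background, logged (log2) and averaged per probe, then per miRNA, using those probes that every array of 1 group or the other detected. limma 3.58.1 in R 4.3.3 was fitted to all 168 miRNAs and tested on simulated data. Array number limits precision. Named miRNAs were the members, seed relatives, the 3 nearest patterns per guide strand, the tested methyltransferase list and the marker lists. Members and lists were chosen with earlier results of these data known. Alternatives covered scaling, background, floor, filter, probe summary, covariates and single arrays left out. They also included the series-wide value table, which equals the processed intensity and so could not differ.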

Additional observations from a re-analysis of the deposited data

Results flagged for a closer look

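In 5 of 26 groups of 4 arrays examined, 1 array stood apart. The measure was its gap to the nearest other array as a share of the group's range. Chance gives about 1 in 20 for independent groups without ties. These groups reuse the same 8 arrays, so the count is not compared with that rate. Among RapCA arrays, total gene signal gave a share of 0.906, with replicate 1 at 56618. The unscaled summed signal of miR-152 gave 0.896, with the same array at 66.3. For miR-148b the share was 1 on the unscaled scale, where RapCA replicate 1 read 7.95 and the others are listed at 0.1. It was also 1 on the scaled log2 scale, where that array read 3.27 and the others lie at the floor. Both shares of 1 follow from the tied values. Among vector arrays, the spike-in geometric mean gave 0.920, with replicate 1 at 1416. Without RapCA replicate 1, and with scaling, floor and filter set anew, the log2 differences were -1.35 for miR-152 and -1.03 for miR-148a.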

How the results depend on the processing

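miR-152 kept its direction in 27 of 27 alternatives and miR-148a in 26. Normexp with an offset of 50 gave miR-152 -0.15 (not called), miR-148a 0.16 and miR-148b 0.56, with 1 member called, as raised. Normexp without an offset turned miR-148b to 0.16. The files hold no mean spot signal, so normexp used median signals, a choice made after seeing the data, as were summed gene signal and the brighter probes without a floor. With total signal as a covariate, 1 member was called (miR-148a -0.45 and miR-148b -0.23 were not). With RapCA replicate 1 as the only RapCA array, assumed to vary like the vector arrays, 1 was called (miR-148a -0.49 and miR-148b -0.23 were not). miR-148b was also lost with spike-in scaling (-0.51) and quantile normalization (-0.18). The cause was not tested. Leaving out 1 array gave -1.37 to -1.01 for miR-152, -1.03 to -0.62 for miR-148a and -0.43 to -0.13 for miR-148b. Scaling, floor and filter were set anew each time. The shift of miR-152 against miR-148a was -0.44 both unscaled and scaled to spike-ins, and -0.22 with summed gene signal. For miR-152 against miR-148b it was -1.36 with scaling by all probes, -1.80 unscaled, -1.77 with spike-in scaling, -0.60 with cyclic loess, -0.71 with normexp and offset, -0.69 with RapCA replicate 1 alone, 0.21 with a floor of 1 and 2.94 with summed gene signal. For miR-148a against miR-148b these were -0.99, -1.36, -1.32, -0.35, -0.40, -0.26, 0.55 and 3.16. Over all miRNAs, calls numbered 92 to 131 against 128, of which 28 raised and 103 lowered with scaling by all probes, 10 and 113 unscaled, 9 and 111 scaled to spike-ins, 56 and 68 with cyclic loess, and 81 and 20 with normexp and offset, against 44 and 84 as reported. Same-numbered arrays lay in the same slide column and correlated at -0.65, -0.60, -0.55 and 0.63 in their deviations. The labels do not say that a number is shared. These values differ in sign and array brightness enters them, so whether the numbers pair the arrays is left undecided. The replicate block left miR-148b uncalled (-0.29), with 118 miRNAs called, and changed no other member's call. Dim signal limits miR-148b, miR-148a* and miR-185. The 3 nearest patterns of each member were shared by 8 of 9 under mean absolute difference. miR-148b gave no value where only probes detected on all 8 arrays were used, and miR-148a* gave none as reported. Outside the family, signs turned without scaling and with spike-in scaling for miR-29a (-0.090 and -0.089), miR-29c (-0.59 in both) and miR-206 (-0.58 and -0.60), and for miR-206 with scaling by all probes (-0.19). Normexp with an offset turned miR-342-3p to 0.051, miR-185 to 0.50, miR-145 to 0.46 and miR-301a to 0.34.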
